A study of Rattus norvegicus with 9 samples.

Results

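Chaperones and stress-response genes of the endoplasmic reticulum were followed in the rat supraoptic nucleus during water deprivation. The genes chosen were Hspa5, Hsp90b1, P4hb, Pdia3, Pdia4, Calr, Canx, Dnajb9, Ddit3 and Xbp1, and every probe set annotated to exactly 1 of these 10 symbols was taken, whatever its signal. That gave 22 probe sets for 9 genes, out of 4736 genes with a probe set of 1 symbol and 8740 probe sets that are not Affymetrix controls. Canx has 5 probe sets, Hspa5, Hsp90b1, P4hb and Calr have 3 each, Pdia3 has 2, and Pdia4, Dnajb9 and Ddit3 have 1 each. Xbp1 has no probe set under that symbol and was not analysed here.

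The supraoptic nucleus is the group of hypothalamic neurons that makes vasopressin and oxytocin, and its RNA was measured on 9 Affymetrix rat arrays, 3 per group. The groups were male Sprague Dawley rats of 10 to 12 weeks that served as controls, that were dehydrated for 1 day, and that were dehydrated for 3 days. Separate rats or pools behind the arrays are not named in the labels, so p-values reflect only how these arrays scatter, and that scatter may be technical. The deposited signals are MAS5 intensities on a linear scale, and the arrays of each group carry the letters a, b and c, in which order values are given here.

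Proteins bound for secretion fold in the lumen of the endoplasmic reticulum with the help of chaperones, lectins that hold glycoproteins, and enzymes that form disulfide bonds. When unfolded protein accumulates there, membrane sensors start the unfolded protein response, in which transcription factors raise many of these same genes. Magnocellular neurons of the supraoptic nucleus pass large amounts of hormone precursor through this compartment, and the precursors of vasopressin and oxytocin carry many disulfide bonds.

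One known control element of these genes, the endoplasmic reticulum stress element, is written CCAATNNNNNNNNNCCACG. This element of 19 letters was searched on both strands in RefSeq promoters of the rat assembly GRCr8. Each window ran from 250 bases before to 50 bases after the start listed for that promoter. It was present in 5 of the 9 promoters of the chosen genes that the promoter table holds (Pdia3 has no entry), against 22 of all 33469 promoters (0.066%). Because the element was already known from these genes, the shares are a description and no test of enrichment. The matches are printed because they spell an element through which stress factors are known to act on genes of this kind, with the fixed letters in capitals:

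Hspa5: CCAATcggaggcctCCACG
Hsp90b1, element nearer the start: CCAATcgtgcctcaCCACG
Hsp90b1, element farther from the start: CCAATcgaaaggagCCACG
Calr: CCAATcagggtcgaCCACG
Canx: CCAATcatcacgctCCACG
Xbp1: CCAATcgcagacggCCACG

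In GRCr8 the Hspa5 match lies at chr3:38452973-38452991 on the plus strand, upstream of the gene start and in the direction of the gene. The Hsp90b1 matches lie at chr7:23012347-23012365 on the plus strand, opposite to the gene, and at chr7:23012451-23012469 on the minus strand, along it. The Calr match lies at chr19:40213135-40213153 on the minus strand, opposite to the gene. The Canx match lies at chr10:35158069-35158087 on the minus strand and the Xbp1 match at chr14:84604558-84604576 on the plus strand, both along the gene. The promoters of P4hb, Pdia4, Dnajb9 and Ddit3 have no match to these letters in this window. For Dnajb9 the window, chr6:67002002-67002301, lies inside the annotated gene, chr6:66997842-67007371. The sequence at the outer start of Dnajb9 was therefore not searched. Other elements of the stress response, searched the same way, were matched in none of the 9 promoters. These were the ERSE-II element, which is ATTGG, 1 free base and CCACG (0.051% of all promoters), the core TGACGTGG of the unfolded protein response element (0.595%), and the amino acid response form TGATGNAA (3.98%). A match is a description of letters, and no binding was measured.

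The arrays differ in ways that touch every value below. Array medians lay between 26.8 and 40.3, and each array's trimmed mean was 100.1, so the arrays were scaled alike. The brightest signal was 2239 on 1-day array c and 2105 on control array c, against 3867 to 6295 on the other 7. The oxytocin gene Oxt had signals of 272.0 on 1-day array c and 208.3 on control array c, against 2331 to 4356 on the other 7. The vasopressin gene Avp, which marks the nucleus, was also lowest on these arrays. It read 1622 (1-day c) and 1765 (control c), against 2487 to 5678 on the other 7. For beta-actin, the ratio between 3′ and 5′ probe sets spanned 0.743–1.07 (control), 1.13–1.48 (1 day) and 0.991–1.43 (3 days). Its control and 1-day ranges did not overlap, and the 3-day range overlapped both. The part of this difference in the members' values was not tested. For Gapdh it spanned 0.926–1.092 (control), 0.85–1.052 (1 day) and 0.892–1.545 (3 days), with overlap between all groups. The highest Gapdh ratio was that of 3-day array c. The summed signal of 6 magnocellular neuron markers, mostly Avp and Oxt, ranged 3714 to 7380 (control), 3719 to 8271 (1 day) and 9439 to 12351 (3 days). The 3-day sums thus did not overlap the others. By gene, 4 of the 6 had a higher mean at 3 days than in control, and Gal and Scg2 had a lower one. Every 3-day array lay above every control array for 3 of the 6 (4.72% of all probe sets tested below). Sums of 6 astrocyte markers (5644 to 9241, 4766 to 10128 and 8614 to 11646 in the order control, 1 day, 3 days) and 6 oligodendrocyte markers (4809 to 7705, 3786 to 8162 and 3317 to 8115 in the same order) overlapped between groups, as did those of 6 general neuronal markers (3349 to 4065, 3439 to 4045 and 3717 to 4004). The sums of 5 microglial markers ranged 168 to 269 (control), 189 to 386 (1 day) and 188 to 257 (3 days), and overlapped. For 4 markers of endothelium and blood, of which the haemoglobin gene Hbb gives most of the signal, the ranges were 1703 to 1763 (control), 1777 to 2465 (1 day) and 982 to 1243 (3 days), with no overlap. Fewer cells of a type and less RNA per cell cannot be told apart in such tissue samples.

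No probe set of these genes passed the test in any comparison. Differences were tested with limma on log2(signal + 4), where the 4 is a pseudocount, over the 5249 probe sets with a mean signal of at least 23.1, and p-values were adjusted over all 5249 with a threshold of 0.05. Of the 22 probe sets 21 entered the test. limma called 0 of 21 at 1 day against control (0% of all probe sets tested), 0 of 21 at 3 days against control (0%), 0 of 21 at 3 days against 1 day (0%), and 0 of 21 by the F test over the 3 groups (0%). The lowest adjusted p among the 21 was 0.99999 at 1 day, 0.99983 at 3 days, 0.99832 for 3 days against 1 day and 0.99964 by the F test, whose lowest unadjusted p was 0.0976.

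Without adjustment the picture was close to the background of all probe sets. At 1 day, 0 of 21 had an unadjusted p under 0.05 in the higher direction (0.572% of all probe sets tested) and 0 of 21 in the lower (0.438%). At 3 days 0 of 21 did in the higher direction (1.07%) and 1 of 21 in the lower (0.648%), which was Dnajb9. For 3 days against 1 day the counts were 0 of 21 higher (0.876%) and 0 of 21 lower (0.953%).

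Counts of probe sets whose arrays did not overlap between groups were as low. At 1 day, 0 of 21 had all 3 arrays above all 3 control arrays (2.63% of all probe sets tested) and 0 of 21 had all 3 below (1.58%). At 3 days 0 of 21 lay above control (4.72%) and 1 of 21 lay below (3.01%), again Dnajb9. Of the 3-day arrays set against 1-day arrays, 0 of 21 lay above (3.05%) and 0 of 21 below (2.67%).

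The median log2 fold change of the 21 probe sets was -0.01 at 1 day, with 10 higher and 11 lower, against 0.02 over all probe sets tested. At 3 days it was -0.12, with 5 higher and 16 lower, against 0.02 over all, of which 51.7% were higher. With 1 array left out in turn, this 3-day median ranged from -0.36 to 0.04, the highest being without 3-day array a. Within the letters the 3-day median over the 21 probe sets was -0.21 for a, 0.12 for b and -0.43 for c, so the direction was not shared by all letters. Of the 21, 5 were lower at 3 days than in control within every letter (13.3% of all probe sets tested were) and 2 were higher within every letter (16.9%). Among the brightest 1% of all probe sets tested (52), 48 were higher at 3 days than in control (median log2 difference 0.59), and 32 were higher at 1 day, with a median of 0.05. The brightest signal was 2105 to 3951 on control arrays, lowest on array c. On 3-day arrays it was 4830 to 6295, highest on array c. These medians were not recomputed without single arrays. The part of this brightness-related difference in the members' values was not tested.

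**Figure D1:**
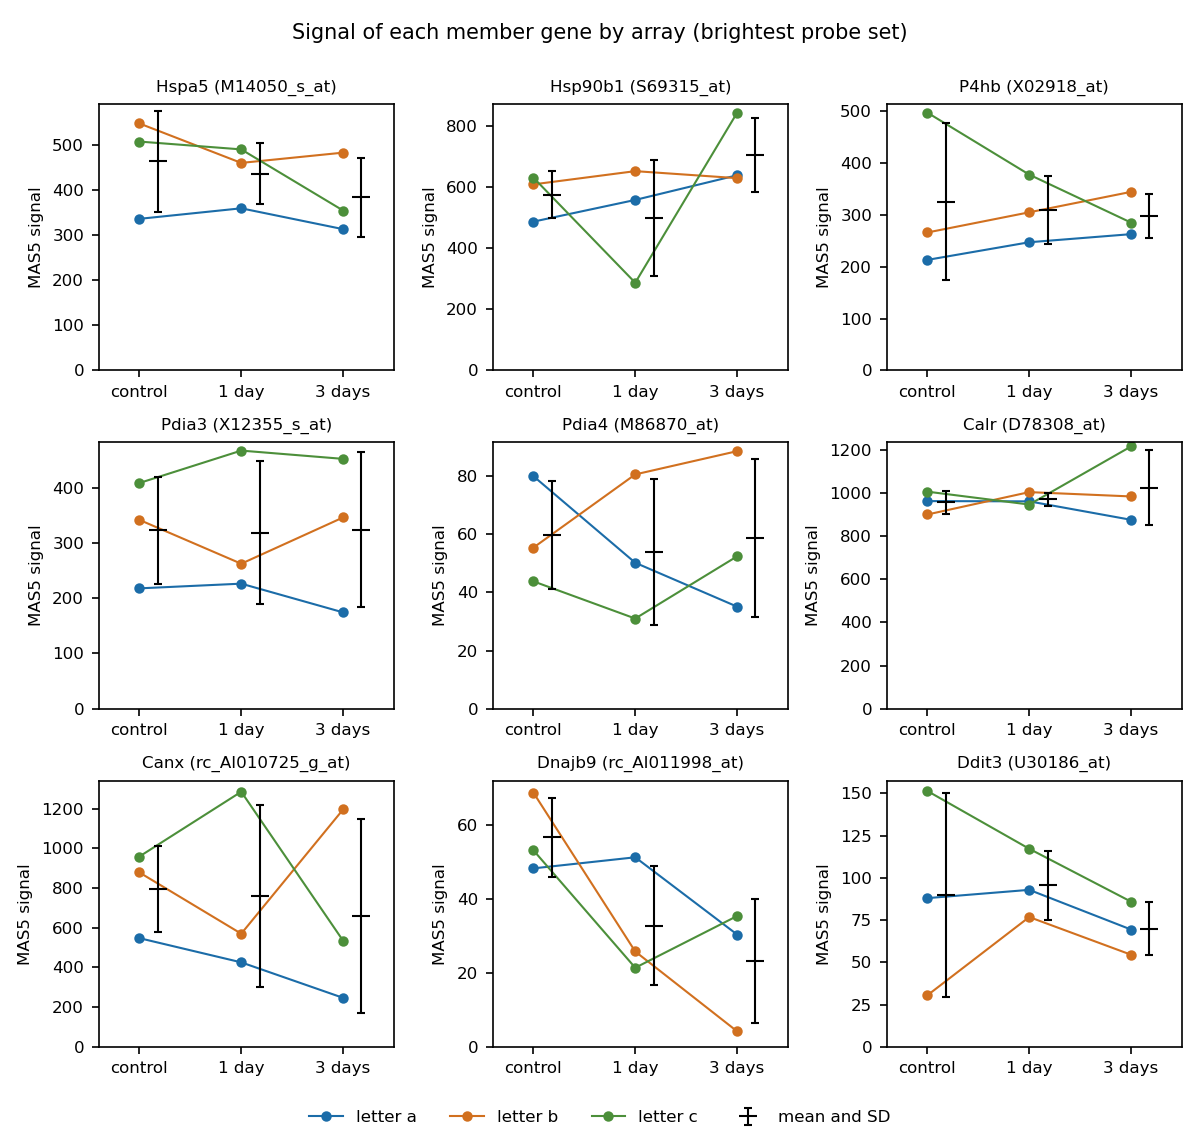
MAS5 signal (linear scale, from 0) of the brightest probe set of each of the 9 genes on each array, in control, after 1 day and after 3 days of dehydration. Points are arrays, lines join arrays of the same letter, and bars give the mean and SD of 3 arrays. Dnajb9 is the only panel in which every 3-day array (4.2 to 35.4) lies below every control array (48.3 to 68.8).

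Hspa5 (BiP, on chromosome 3) is the Hsp70 chaperone of the endoplasmic reticulum lumen and the protein that holds the stress sensors inactive in unstressed cells. Its brightest probe set, M14050_s_at, had signals of 336.6, 548.4 and 508.2 in control, 360.0, 460.8 and 490.8 at 1 day, and 313.7, 483.6 and 355.1 at 3 days. The groups overlapped, and array a was the lowest of its group each time. Group means with SD (n = 3 each) were 464.4 ± 112.5 for control, 437.2 ± 68.5 after 1 day and 384.1 ± 88.6 after 3 days. Its log2 fold change was -0.07 ± 0.28 (SE) at 1 day and -0.26 ± 0.28 at 3 days (limma adjusted p = 0.99999 and 0.99983). The 95% interval of the 3-day difference ran from 0.546-fold to 1.27-fold of control.

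The probe set S63521_i_at of Hspa5 was more variable. It had 73.2, 154.1 and 130.1 in control, 81.3, 146.4 and 121.1 at 1 day, and 37.7, 214.8 and 31.5 at 3 days. At 3 days its arrays a and c were the lowest of all 9 and array b the highest, which gave a log2 fold change of -0.78 ± 0.61. The Hspa5 probe set S63521_r_at, at 0.3 to 18 on all arrays with a mean of 5.71, was under the limit for testing. Affymetrix uses the suffixes i and r for probe sets that do not meet all of its probe selection rules. Over the 9 arrays the M14050 and S63521_i probe sets correlated with r = 0.85, as a description.

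Hsp90b1 (Grp94, on chromosome 7) is the Hsp90 chaperone of the lumen, which folds secreted and membrane proteins. Its probe set S69315_at had 487.8, 610.0 and 632.1 in control, 559.0, 653.4 and 287.5 at 1 day, and 639.9, 630.4 and 844.7 at 3 days. The 3-day arrays all exceeded the control arrays of their own letter, but the groups overlapped, since control array c at 632.1 lay above 3-day array b at 630.4. Group means with SD (n = 3 each) were 576.6 ± 77.7 for control, 500.0 ± 190.0 after 1 day and 705.0 ± 121.1 after 3 days. It stood at -0.28 ± 0.31 (log2 fold change) at 1 day, 0.28 ± 0.31 at 3 days and 0.56 ± 0.31 for 3 days against 1 day, none past the test.

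The 1-day array c stood apart for Hsp90b1. The probe set S69316_s_at had 139.2, 234.6 and 186.9 in control, 137.2, 242.6 and 33.8 at 1 day, and 130.1, 256.0 and 155.1 at 3 days, with a log2 fold change of -0.77 ± 0.58 at 1 day and -0.08 ± 0.58 at 3 days. Both it and S69315_at had their lowest value on that array. Without the letter c arrays of control and 1 day, the 1-day log2 fold change of S69315_at was 0.15. The remaining probe set, AA685903_at, had 207.2, 283.0 and 160.7 in control, 195.1, 323.9 and 208.5 at 1 day, and 188.6, 271.7 and 162.8 at 3 days. In it the letter b array was the highest of every group, and its log2 fold change was 0.16 ± 0.31 at 1 day and -0.06 ± 0.31 at 3 days. Over the 9 arrays it correlated with S69315_at at r = -0.05, while S69316_s_at and S69315_at correlated at r = 0.82.

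Dnajb9 (ERdj4, on chromosome 6) is a J-domain co-chaperone of Hspa5 and a known target of the Ire1-Xbp1 branch of the unfolded protein response. Its probe set rc_AI011998_at had 48.3, 68.8 and 53.2 in control, 51.3, 25.8 and 21.4 at 1 day, and 30.4, 4.2 and 35.4 at 3 days. Every 3-day array lay below every control array, and at 1 day arrays b and c lay below control while array a did not. Group means with SD (n = 3 each) were 56.8 ± 10.7 for control, 32.8 ± 16.1 after 1 day and 23.3 ± 16.8 after 3 days.

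The log2 fold change of Dnajb9 was -0.79 ± 0.59 at 1 day (unadjusted p = 0.209), -1.43 ± 0.59 at 3 days (0.371-fold) and -0.64 ± 0.59 for 3 days against 1 day. At 3 days the unadjusted limma p was 0.0352 and the adjusted p 0.99983, so the difference did not pass the test over all probe sets. The 95% interval ran from 0.149-fold to 0.92-fold of control. The size rests on 3-day array b, whose 4.2 is close to the pseudocount. Without that array the 3-day log2 fold change was -0.71, and over the alternatives its unadjusted p ranged from 0.0172 to 0.135. The summed magnocellular markers, mostly Avp and Oxt, did not overlap between 3-day and control arrays. Nor did the endothelium and blood sums, mostly Hbb. The part of these differences in the Dnajb9 values was not tested.

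Disulfide isomerases form and rearrange the disulfide bonds of secreted proteins. P4hb (protein disulfide isomerase, on chromosome 10) had 213.0, 265.8 and 496.7 in control, 247.0, 304.7 and 377.3 at 1 day, and 262.6, 344.1 and 284.8 at 3 days with X02918_at. Control array c was the highest of the 9, so the SD of control was 150.9 around a mean of 325.2, against 65.3 around 309.7 at 1 day and 42.1 around 297.2 at 3 days. This gave a log2 fold change of 0.00 ± 0.32 at 1 day and -0.04 ± 0.32 at 3 days. Without the letter c arrays of control and 1 day the 3-day value was 0.31, so its direction depended on control array c.

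The other P4hb probe sets gave no shared direction. X02918_g_at had 111.3, 150.2 and 162.4 in control, 189.0, 172.0 and 156.9 at 1 day, and 112.2, 183.3 and 168.5 at 3 days, with a log2 fold change of 0.30 ± 0.27 at 1 day and 0.11 ± 0.27 at 3 days. M21476_s_at had 56.8, 46.5 and 35.8 in control, 50.8, 43.0 and 22.5 at 1 day, and 55.4, 17.9 and 25.6 at 3 days, for which it was -0.28 ± 0.46 at 1 day and -0.56 ± 0.46 at 3 days. Over the 9 arrays M21476_s_at ran against both other P4hb probe sets, with r of -0.59 and -0.55.

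Pdia3 (ERp57), the isomerase that works on glycoproteins together with calreticulin and calnexin, had 217.8, 341.8 and 408.6 in control, 226.3, 262.4 and 467.3 at 1 day, and 174.3, 346.2 and 452.3 at 3 days with X12355_s_at. The order a, b, c from lowest to highest was the same in all 3 groups. Group means with SD (n = 3 each) were 322.7 ± 96.8 for control, 318.7 ± 130.0 after 1 day and 324.3 ± 140.3 after 3 days. The log2 fold change was -0.04 ± 0.41 at 1 day and -0.05 ± 0.41 at 3 days, and the 95% interval at 3 days ran from 0.519-fold to 1.80-fold of control. That interval does not pair the arrays by letter. Fitted with the letter as a replicate block, the SE at 3 days was 0.20. The dimmer Pdia3 probe set rc_AA892637_at had 43.1, 54.3 and 61.5 in control, 58.0, 68.8 and 53.0 at 1 day, and 28.1, 58.4 and 43.5 at 3 days, with 0.17 ± 0.33 at 1 day and -0.31 ± 0.33 at 3 days.

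Pdia4 (ERp72, on chromosome 4), an isomerase with several thioredoxin-like domains, had 80.0, 55.4 and 43.8 in control, 50.2, 80.6 and 31.0 at 1 day, and 35.1, 88.6 and 52.4 at 3 days. The order of the letters differed between the 3 groups, whose ranges overlapped. Pdia4 had a log2 fold change of -0.19 ± 0.43 at 1 day and -0.07 ± 0.43 at 3 days.

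Calr and Canx encode calreticulin and calnexin, the soluble and the membrane-bound lectin chaperones that hold newly made glycoproteins. Calreticulin (on chromosome 19) had the smallest standard error of the 21 probe sets with D78308_at, which read 963.5, 901.3 and 1007.3 in control, 962.3, 1005.2 and 947.5 at 1 day, and 876.6, 985.1 and 1217.3 at 3 days. Group means with SD (n = 3 each) were 957.4 ± 53.3 for control, 971.7 ± 30.0 after 1 day and 1026 ± 174 after 3 days. The log2 fold change was 0.02 ± 0.22 at 1 day and 0.09 ± 0.22 at 3 days, and the 95% interval at 3 days ran from 0.764-fold to 1.48-fold of control.

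The D78308_g_at probe set of Calr had 251.9, 235.3 and 194.8 in control, 228.6, 279.1 and 182.4 at 1 day, and 216.7, 271.8 and 209.2 at 3 days, with a log2 fold change of 0.00 ± 0.25 at 1 day and 0.03 ± 0.25 at 3 days. X53363cds_s_at had 325.1, 215.5 and 178.0 in control, 185.3, 254.5 and 96.3 at 1 day, and 249.2, 209.3 and 119.6 at 3 days, for which it was -0.47 ± 0.40 at 1 day and -0.33 ± 0.40 at 3 days. In both the letter c array was the lowest of every group, which was not so for D78308_at.

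Calnexin (on chromosome 10) included the probe sets with the largest standard errors. Its brightest probe set, rc_AI010725_g_at, had 547.8, 879.0 and 959.4 in control, 425.8, 570.3 and 1286 at 1 day, and 246.9, 1196 and 535.0 at 3 days. Array a was the lowest of each group, and the spread of the 3-day arrays enclosed all other values but the highest 1-day value. Group means with SD (n = 3 each) were 795.4 ± 218.2 for control, 760.7 ± 460.6 after 1 day and 659.5 ± 486.9 after 3 days. The log2 fold change was -0.19 ± 0.55 at 1 day and -0.51 ± 0.55 at 3 days, with a 95% interval at 3 days from 0.302-fold to 1.63-fold of control.

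The probe set rc_AI010725_at of Canx followed it closely (r = 0.93 over the 9 arrays) and had 474.9, 1094 and 800.5 in control, 334.7, 529.9 and 1223 at 1 day, and 118.5, 944.8 and 746.5 at 3 days. A similar course (r = 0.89) was seen with rc_AI235707_g_at, which had 129.7, 290.1 and 181.2 in control, 131.1, 237.7 and 379.0 at 1 day, and 46.2, 411.1 and 72.8 at 3 days. Their log2 fold changes at 3 days were -0.76 ± 0.72 and -0.73 ± 0.69. The L18889_at probe set, with r = -0.15 and -0.19 against the 2 rc_AI010725 probe sets and 0.12 and 0.37 against the others, had 269.5, 296.6 and 263.1 in control, 256.8, 455.5 and 188.8 at 1 day, and 310.3, 395.3 and 249.2 at 3 days. Its log2 fold change at 3 days was 0.18 ± 0.32, so the 5 Canx probe sets did not share a sign.

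The dimmest Canx probe set, rc_AA893328_at, had 14.9, 62.0 and 49.7 in control, 21.4, 137.6 and 49.2 at 1 day, and 15.2, 31.2 and 25.4 at 3 days. Array a was the lowest and array b the highest of every group. For 3 days against 1 day its log2 fold change was -1.09 ± 0.65 (limma unadjusted p = 0.125). Fitted with the letter as a replicate block, this comparison had an unadjusted p of 0.02 and an adjusted p of 0.770.

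**Figure D2:**
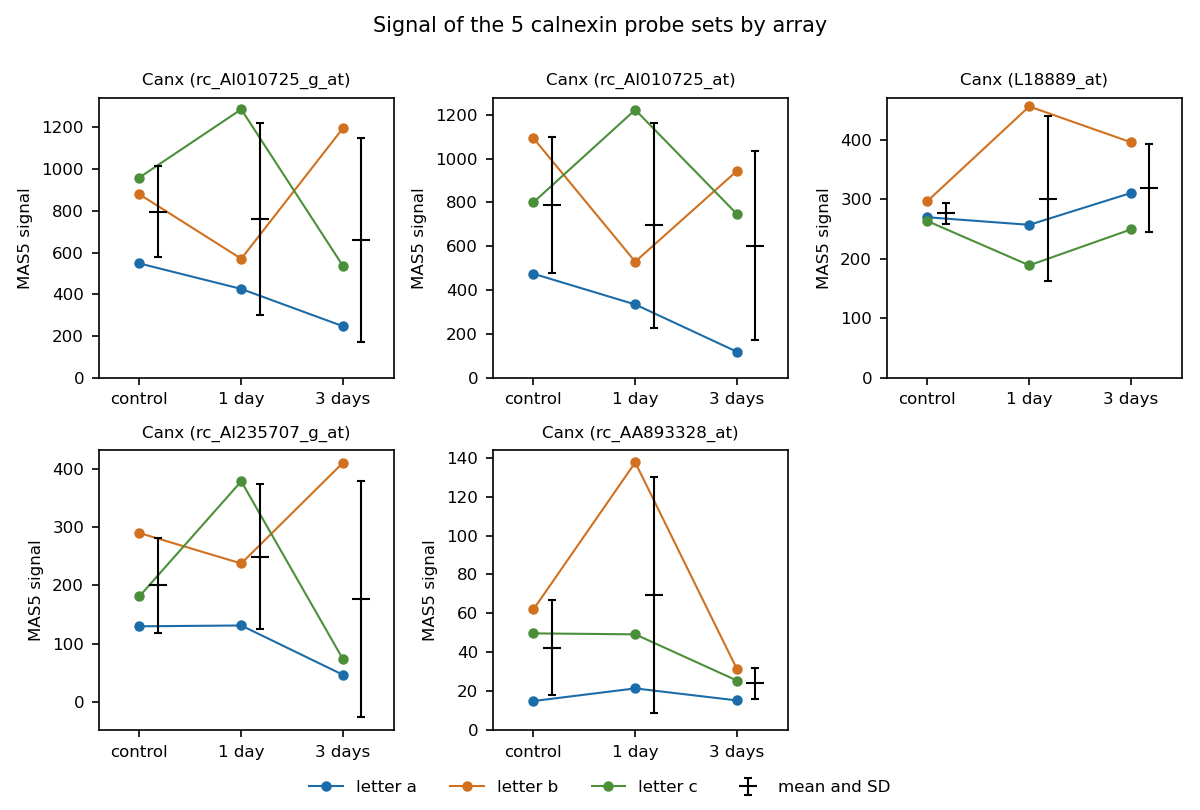
MAS5 signal (linear scale) of the 5 calnexin probe sets on each array, in control, after 1 day and after 3 days of dehydration. Points are arrays, lines join arrays of the same letter, and bars give the mean and SD of 3 arrays. Letter a is lowest in every group in 4 panels, and in L18889_at letter b is highest in every group.

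Ddit3 (CHOP, on chromosome 7) is the transcription factor that the Perk-Atf4 branch raises under lasting stress. Its probe set U30186_at had 88.0, 30.5 and 151.4 in control, 92.9, 76.8 and 117.2 at 1 day, and 69.4, 54.5 and 85.9 at 3 days. Array c was the highest and array b the lowest of every group, and all dehydrated arrays lay within the range of control. Relative to control it stood at 0.31 ± 0.48 (log2 fold change) at 1 day and -0.12 ± 0.48 at 3 days. The 95% interval at 3 days ran from 0.443-fold to 1.92-fold of control, and without the letter c arrays of control and 1 day the 3-day value was 0.37.

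The precision of these arrays sets what could have been seen. The standard error of a member's log2 fold change ranged from 0.22 to 0.72, with a median of 0.41, against 0.40 over all probe sets tested. These errors, and all 95% intervals given here, come from the fit without the letters. With the letter as a replicate block, the error of 0.22 (Calr D78308_at) became 0.18. That of 0.72 (Canx rc_AI010725_at) became 0.43. The upper end of the 95% interval was under 2-fold for 15 of 21 probe sets at 1 day, for 20 of 21 at 3 days and for 16 of 21 between 3 days and 1 day. The lower end was under 0.5-fold for 9 of 21 at 1 day, for 12 of 21 at 3 days and for 9 of 21 between 3 days and 1 day. A p above the threshold does not show that a gene was the same in both groups.

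**Figure D3:**
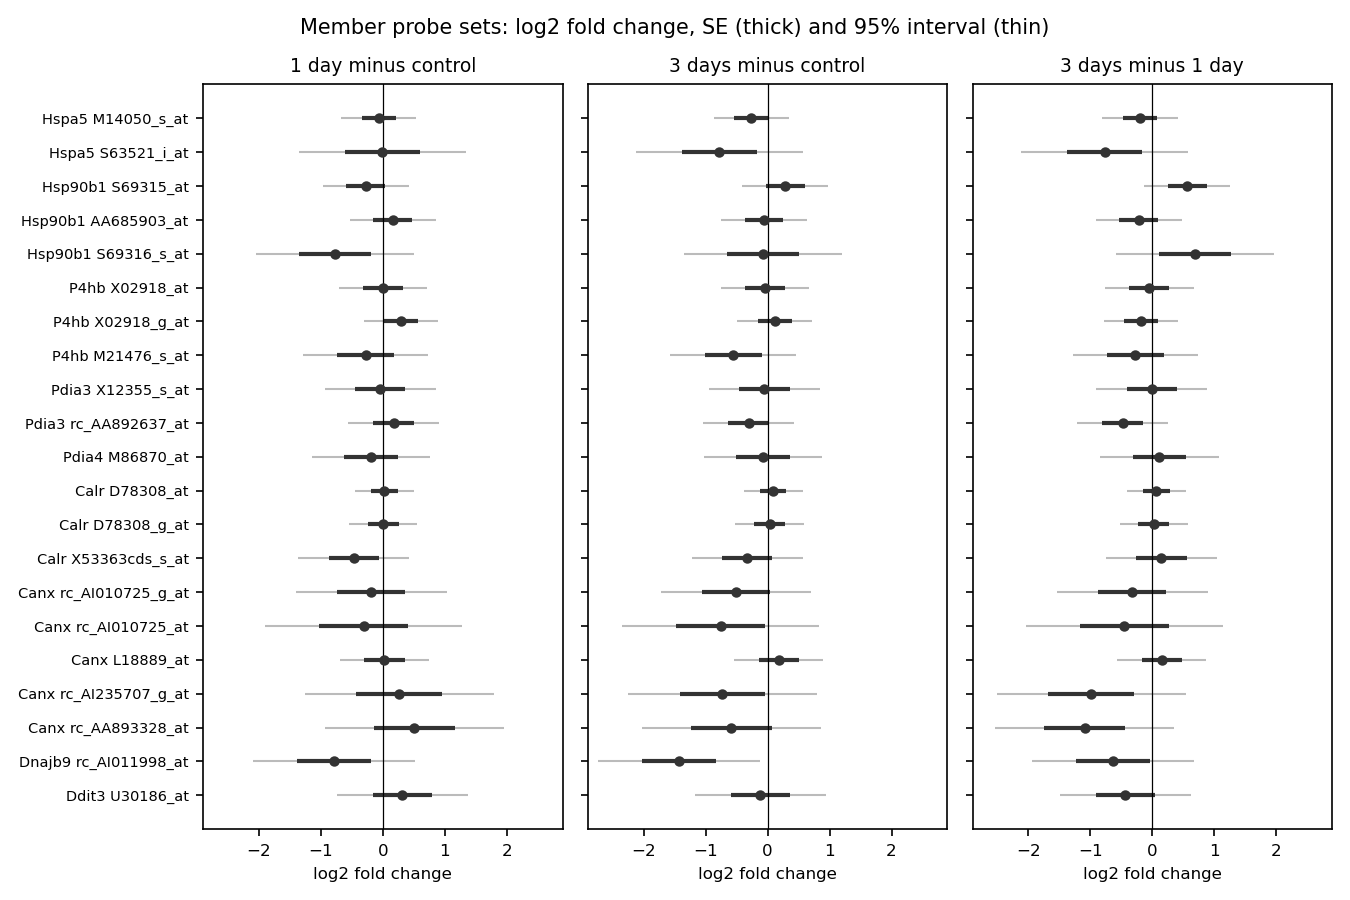
Log2 fold change of the 21 tested probe sets in the 3 comparisons, on the log2(signal + 4) scale. Points are estimates, thick lines are 1 standard error and thin lines 95% intervals from limma, fitted without the replicate block. Across the 3 panels, only the 3-day interval of Dnajb9 does not include 0.

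The chaperone signals varied more with the array letter than with dehydration. Of the variation of each probe set over the 9 arrays, a median of 15.4% lay between the groups and 55.8% between the letters, against 15.7% and 43.6% over all probe sets tested. The letter share was the larger in 19 of 21 probe sets (73.7% of all probe sets tested), and the exceptions were Dnajb9 and S69315_at of Hsp90b1. Within members, Pdia3 X12355_s_at had 90.1% between letters and 0.224% between groups, Hsp90b1 AA685903_at had 86.8% and 7.63%, and Hspa5 M14050_s_at had 70.0% and 16%. Dnajb9 had 15.2% between letters and 43.7% between groups.

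The same letter was lowest in all 3 groups in 11 of 21 probe sets (27.5% of all probe sets tested). This was letter a in 7 of 21 (8.48% of all), namely 1 probe set each of Hspa5, P4hb and Pdia3 and 4 of Canx. It was letter c in 3 and letter b in 1. On the 3-day array a, 17 of 21 probe sets lay below the mean of their group of 3 arrays, and on control array a 15 of 21 did. On the letter b arrays 16 of 21 lay above their group mean in control, 14 of 21 at 1 day and 16 of 21 at 3 days. What the letters stand for is not given in the labels, and the arrays of 1 letter may share an animal, a pool or a day of work.

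**Figure D4:**
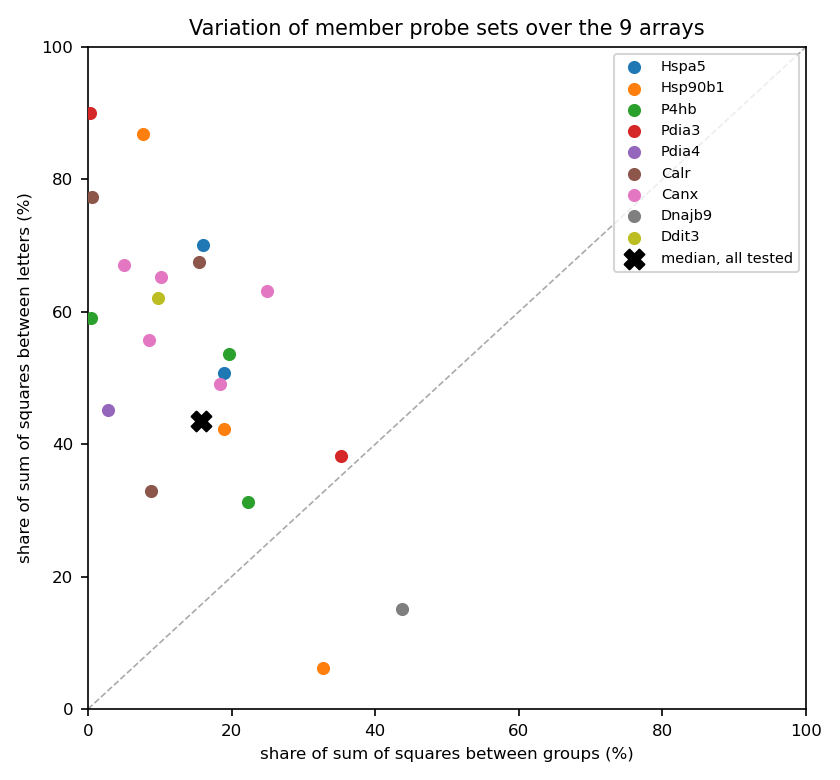
Share of the sum of squares of log2(signal + 4) over 9 arrays that lies between the 3 letters (vertical axis, %) against the share between the 3 groups (horizontal axis, %). Each point is a probe set coloured by gene, the cross is the median of all probe sets tested, and the dashed line marks equal shares. Of the 21 points 19 lie above the line, with Dnajb9 and 1 Hsp90b1 probe set below it.

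The genes most like Hspa5 over the 9 arrays, out of 4352 other probe sets with 1 symbol, were Hspa9 (r = 0.97), Dnaja2 (r = 0.96) and Arl1 (r = 0.95). Hspa9 encodes the mitochondrial Hsp70 chaperone and Dnaja2 a cytosolic co-chaperone of Hsp70. Among the members the Canx probe set rc_AI235707_g_at was nearest to Hspa5 (r = 0.86). The genes most like Dnajb9, out of 4353, were Npr2 (r = 0.97), a receptor of C-type natriuretic peptide, Serping1 (r = 0.96), an inhibitor of complement proteases, and Maob (r = 0.95), which oxidises amines. Nearest among the members was P4hb M21476_s_at (r = 0.72). These are the highest of many correlations over arrays that share their scaling and letters, given as a description.

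Of the tested genes with a promoter entry, 4 carry the stress element in the searched window and 4 do not. For Dnajb9, among the latter, that window lay inside the annotated gene. No probe set of either kind passed the test. The 13 probe sets of Hspa5, Hsp90b1, Calr and Canx had median log2 differences of -0.01 at 1 day (6 higher, 7 lower) and -0.26 at 3 days (4 higher, 9 lower). The 6 probe sets of P4hb, Pdia4, Dnajb9 and Ddit3 had medians of -0.09 at 1 day (3 higher, 3 lower) and -0.10 at 3 days (1 higher, 5 lower). Of the other genes whose promoter holds the element, Ero1b and Hnrnpa3 were tested. The endoplasmic reticulum oxidase Ero1b had a log2 fold change of -0.02 ± 0.33 at 1 day and -0.04 ± 0.33 at 3 days. The RNA-binding protein Hnrnpa3 stood at -0.13 ± 0.37 and 0.33 ± 0.30 at 1 day in its 2 probe sets, and at -0.01 ± 0.37 and 0.28 ± 0.30 at 3 days.

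A wider list of 121 genes of the endoplasmic reticulum, of which 54 had a probe set and 48 were tested with their brightest probe set, showed no call either. limma called 0 of 48 in each comparison, and at an unadjusted p under 0.05 there was 1 of 48 at 1 day (Calu, lower, against 0.438% of all probe sets tested), 1 of 48 at 3 days (Dnajb9, lower, against 0.648%) and 0 of 48 between 3 days and 1 day (0.876% higher and 0.953% lower over all). At 1 day 20 of 48 were higher and 28 lower than in control (median log2 difference -0.05), and at 3 days 18 were higher and 30 lower (median -0.06), against 0.02 over all probe sets tested at each time. Neither direction was steady: without control array c the medians were 0.07 at 1 day and 0.08 at 3 days. Arrays did not overlap at 1 day for 2 of 48 above control (Sec61b and Ddost, against 2.63% of all probe sets tested) and 1 of 48 below it (Hspa13, 1.58%). At 3 days this held for 0 of 48 above control (4.72%) and 1 of 48 below it (Dnajb9, 3.01%). Between 3 days and 1 day it held for 0 of 48 higher at 3 days (3.05%) and 2 of 48 lower (Ddost and Plod2, 2.67%). These counts are of 0 to 2 genes each, and no difference from those shares was tested. Of the 24 single-gene values that the naming rule took from this list, 21 became more than 1.5 times smaller or changed sign when 1 array was left out, and 1 changed sign.

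Of the lumenal chaperones and co-chaperones none passed the test. At 1 day 6 of 6 had a mean below control (median log2 fold change -0.41; 47.3% of all probe sets tested were lower), but Hspa5 at -0.07 ± 0.28 and Serpinh1, the collagen chaperone, at -0.06 ± 0.36 were near 0. Without the letter c arrays of control and 1 day 4 of 6 were lower (median -0.19). At 3 days 5 of 6 were lower (median -0.47; 48.3% over all), Hsp90b1 being the exception. Both counts take Hsp90b1 by its brightest probe set, S69315_at. Its probe set AA685903_at stood at 0.16 at 1 day and -0.06 at 3 days, and S69316_s_at at -0.77 and -0.08. Hyou1, the large chaperone related to Hsp70 that exchanges nucleotide on Hspa5, had 214.2, 311.4 and 316.7 in control, 165.3, 262.1 and 157.5 at 1 day, and 188.8, 246.8 and 167.3 at 3 days. Every dehydrated array was below the control array of its letter, though the groups overlapped, and the log2 fold change was -0.53 ± 0.29 at 1 day and -0.47 ± 0.29 at 3 days. Hspa13, an Hsp70 relative of the microsomes, had 48.4, 88.0 and 62.7 in control, 21.7, 38.7 and 47.7 at 1 day, and 10.1, 71.4 and 30.3 at 3 days. Its 1-day arrays all lay below control and its 3-day array b did not, with log2 fold changes of -0.83 ± 0.57 and -1.05 ± 0.57.

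Among sensors, factors and targets of the stress response, 6 of 9 were higher at 1 day (median 0.30) and 4 of 9 at 3 days (median 0.00), none past the test. Tmbim6, a membrane protein also known as Bax inhibitor, had 561.7, 761.4 and 922.8 in control, 892.5, 809.8 and 1116 at 1 day, and 904.4, 950.7 and 1185 at 3 days. Each dehydrated array was above the control array of its letter, and the log2 fold change was 0.34 ± 0.26 at 1 day and 0.45 ± 0.26 at 3 days (limma adjusted p = 0.99999 and 0.99983). Eif2ak3, the sensor kinase Perk, had 25.2, 30.4 and 23.0 in control, 26.6, 62.8 and 34.7 at 1 day, and 20.1, 40 and 11.6 at 3 days, with a log2 fold change of -0.75 ± 0.49 between 3 days and 1 day. Trib3, a target of Ddit3, stood at -1.0 ± 0.68 in that comparison, while Asns, a target of Atf4, stood at 0.27 ± 0.34 at 3 days against control.

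Of 7 disulfide isomerases and oxidases 3 were higher and 4 lower at 1 day (median -0.02), and 2 were higher and 5 lower at 3 days (median -0.04). Outside the members, the pancreatic isomerase Pdia2 stood at 0.83 ± 0.56 at 1 day and 0.72 ± 0.56 at 3 days, with control array a (49.0) inside the range of the dehydrated arrays (22.6 to 70.9). Of 3 lectin chaperones and trimming enzymes 1 was higher and 2 were lower at both times (medians -0.19 and -0.06). Prolyl isomerases and hydroxylases had 2 of 5 higher at 1 day (median -0.10) and 1 of 5 at 3 days (median -0.27), and Plod1, a collagen lysyl hydroxylase, stood at -0.51 ± 0.34 between 3 days and 1 day.

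Genes of translocation, signal peptidase and glycosylation had 7 of 10 higher at 1 day (median 0.14) and 6 of 10 at 3 days (median 0.02). Ddost, a subunit of the oligosaccharyltransferase, had 87.6, 68.2 and 102.3 in control, 103.5, 133.6 and 108.2 at 1 day, and 79.2, 83.3 and 98.0 at 3 days. Its 1-day arrays lay above all arrays of both other groups, with a log2 fold change of 0.41 ± 0.26 at 1 day. The translocon subunit Sec61b stood at 0.37 ± 0.24 at 1 day. Between 3 days and 1 day the signal peptidase Sec11a stood at -0.44 ± 0.29. The translocon subunit Sec61a1 had 67.6, 93.1 and 88.2 at 3 days, against 82, 91.5 and 13.6 at 1 day. Its log2 difference of 0.72 ± 0.56 rested on 1-day array c, without which it was -0.07. The degradation genes were represented by Vcp alone, at -0.03 at 1 day and -0.01 at 3 days.

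The calcium store, on which lumenal chaperones depend, had 1 of 7 higher at 1 day (median -0.17) and 3 of 7 at 3 days (median -0.07). Calu, a calcium-binding protein of the secretory pathway, had 158.3, 106.3 and 217.2 in control, 145.3, 74.8 and 20.0 at 1 day, and 149.6, 124.9 and 151.5 at 3 days. Its log2 fold change at 1 day was -1.27 ± 0.55 (limma unadjusted p = 0.0428, adjusted p = 0.99999), and its lowest value came from 1-day array c, as did those of 2 of the 3 Hsp90b1 probe sets. Without that array the Calu value was -0.54. For 3 days against 1 day Calu stood at 1.15 ± 0.55. Casq2, a calcium store protein of muscle, had 31.4, 6.8 and 25.3 at 1 day, against 28.7, 43.1 and 28.6 in control. Its log2 fold change of -0.72 ± 0.52 at 1 day was -0.20 without 1-day array b. The other calcium-store genes with the smallest p-values were Rcn2 at -0.68 ± 0.42 at 3 days, and the calcium pump Atp2a3 at 0.55 ± 0.36 between 3 days and 1 day.

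**Figure D5:**
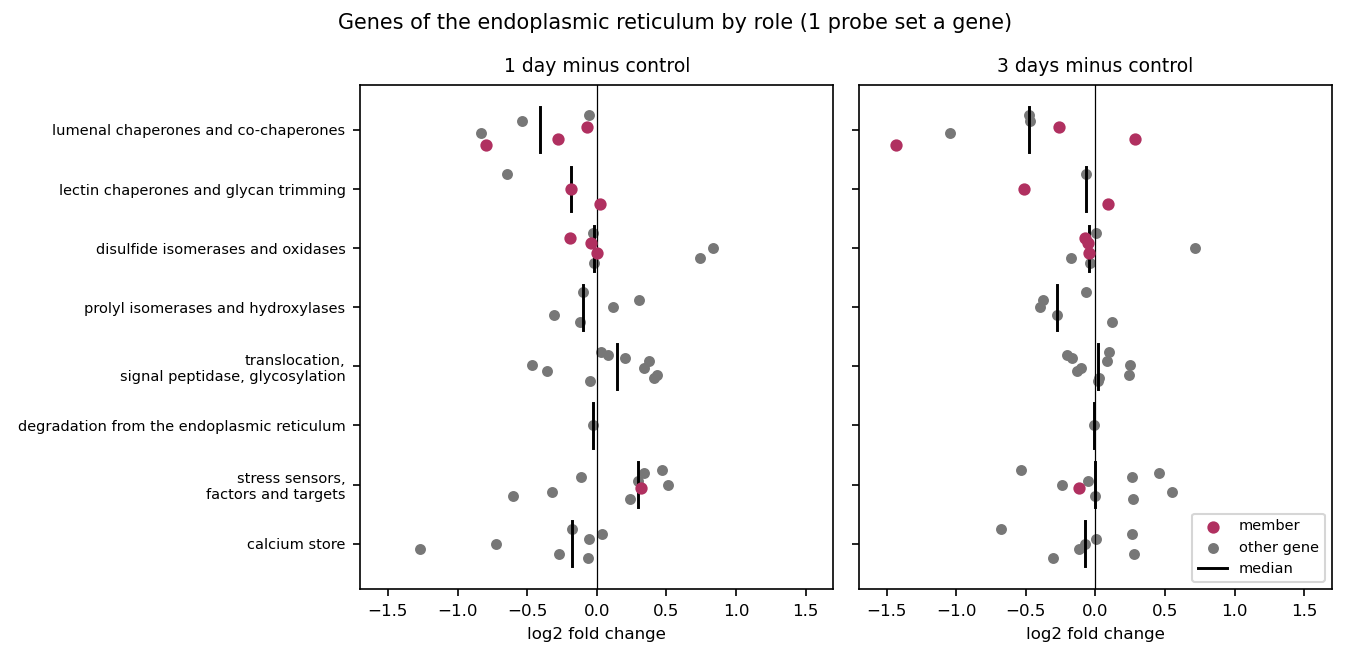
Log2 fold change at 1 day (left) and 3 days (right) against control for the 48 tested genes of the wider endoplasmic reticulum list, grouped by role, with members in red and medians as black bars. Each gene is shown by its brightest probe set. The 6 lumenal chaperones and co-chaperones all lie left of 0 at 1 day, and 5 of 6 do at 3 days, with medians of -0.41 and -0.47.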

How the data were processed

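The deposited values are MAS5 intensities on a linear scale, made by the authors with MAS5 per the submitters' processing notes, with the version and the genome build not given in the sources used here. Of 8799 probe sets 59 are Affymetrix controls and 7006 have 1 symbol in the platform annotation. From the intensities log2(signal + 4) was computed, so fold changes understate those of dim genes. A mean signal of 23.1, the 40th percentile, was required for testing. Group means of all 9 arrays were fitted together in limma 3.58.1 under R 4.3.3 (6 residual degrees of freedom) with an intensity trend, two-sided moderated tests and Benjamini-Hochberg adjustment, after a check on simulated data. The members and gene lists were chosen with earlier results of these data known. Every member probe set is described; of the wider list, the 4 genes per direction and comparison with the smallest p are named, and of likeness, the 3 highest r.

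The letters pair the arrays: deviations from group means correlated at r of 0.17 to 0.47 for the 9 pairs of the same letter, against -0.33 to 0.12 for the 18 others. Cell type markers were fixed lists. The number of arrays limits the precision. Alternatives changed the pseudocount (1, 16), filter (none, 60th percentile), normalization, variance prior, arrays, probe sets per gene and the replicate block. Promoters are those of RefSeq, GRCr8. Plots were made in Python 3.11.15 using matplotlib 3.10.9.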

Additional observations from a re-analysis of the deposited data

How the results depend on the processing

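limma called 0 probe sets in every comparison under every alternative run. With the replicate block, which pairs the arrays by letter, the count at an unadjusted p under 0.05 over all probe sets was 136 at 1 day and 270 at 3 days, against 53 and 90 without it. The block changed no call. The lowest adjusted p among the members was 0.958 at 1 day, 0.874 at 3 days and 0.770 for 3 days against 1 day with it. Of 564 values of member genes under the alternatives, 53 changed sign, in 20 of 27 results. The causes were not tested. The log2 fold changes that changed sign follow.

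Without the letter c arrays of control and 1 day, the 1-day value was 0.15 for Hsp90b1, the 3-day values were 0.31 for P4hb, 0.14 for Pdia3 and 0.37 for Ddit3, and those of 3 days against 1 day were 0.10 for P4hb, 0.30 for Pdia3, -0.20 for Pdia4 and 0.13 for Canx. The median of the wider list was then 0.055 at 1 day and 0.084 at 3 days. With the mean of all probe sets of a gene, the 1-day values were 0.064 for Pdia3, -0.15 for Calr and 0.059 for Canx, and the 3-day value of Calr was -0.069. Median centring gave -0.034 for P4hb and -0.015 for Calr at 1 day, and quantile normalization 0.018 for P4hb at 3 days.

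With 1 array left out in turn, 1-day values ranged from -0.28 to 0.067 for Hspa5, from -0.51 to 0.076 for Hsp90b1, from -0.25 to 0.35 for P4hb, from -0.35 to 0.16 for Pdia3, from -0.51 to 0.13 for Pdia4, from -0.020 to 0.060 for Calr, from -0.65 to 0.15 for Canx and from -0.28 to 0.80 for Ddit3. The 3-day values ranged from -0.30 to 0.31 for P4hb, from -0.34 to 0.34 for Pdia3, from -0.40 to 0.22 for Pdia4, from -0.041 to 0.19 for Calr, from -1.08 to 0.050 for Canx and from -0.72 to 0.37 for Ddit3. For 3 days against 1 day they ranged from -0.20 to 0.10 for P4hb, from -0.30 to 0.38 for Pdia3, from -0.21 to 0.44 for Pdia4, from -0.064 to 0.17 for Calr, from -0.89 to 0.24 for Canx and from -1.05 to 0.085 for Dnajb9. The median of the member probe sets ranged from -0.14 to 0.11 at 1 day, from -0.36 to 0.040 at 3 days and from -0.21 to 0.029 for 3 days against 1 day. That of the wider list ranged from -0.093 to 0.073 at 1 day, from -0.13 to 0.084 at 3 days and from -0.11 to 0.069 for 3 days against 1 day. Member probe sets at an unadjusted p under 0.05 numbered 0 to 1 at 1 day, 0 to 2 at 3 days and 0 to 2 for 3 days against 1 day. The 3-day value of Dnajb9 ranged from -1.84 to -0.71, and the filter at the 60th percentile left that gene out.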
